A study of Mus musculus with 12 samples.

Results

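Hepatokines are proteins that the liver secretes and that act on other organs or on the liver itself. The 9 hepatokine genes examined here were Fgf21, Gdf15, Fst, Angptl4, Angptl8, Fetub, Ahsg, Inhbe and Enho. They were taken as a named list and found by gene symbol among the 52636 genes in the deposited count files. All 9 of them were present, and 9 of 9 passed the filter on low counts, which 12453 genes passed.

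Liver RNA-seq was made from 12 male C57Bl/6J mice at 16 weeks of age, with 1 library per mouse. VDD-F1 mice (n = 6, VDD1 to VDD6) were born to dams fed a vitamin D deficient diet before mating and through pregnancy, and VDS-F1 mice (n = 6, VDS1 to VDS6) to dams fed a nutrient-matched vitamin D sufficient diet. All mothers received the sufficient diet from delivery on, all offspring received it after weaning, and the sires ate control diet. The deficient dams were also given calcium gluconate, so the diet and this supplement cannot be told apart in VDD-F1 offspring. Neither the mothers nor the litters of the 12 mice are given in the sources used here, so the p-values measure the spread between mice that may share a litter. The study's supplement lists liver weights for VDD4 to VDD6 and for VDS3 to VDS6 (7 mice, the recorded set). It lists none for VDD1 to VDD3, VDS1 and VDS2 (5 mice, the not recorded set). What else separated these sets is not given, and each diet difference below was therefore also computed within each set.

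The 9 genes cover several branches of liver endocrinology. Fgf21 and Gdf15 encode circulating hormones that cells release under nutritional or cellular stress. Inhbe encodes the subunit of activin E, a TGF-beta family ligand, and Fst encodes follistatin, which binds activins and blocks them. Angptl4 and Angptl8 act on lipoprotein lipase, the enzyme that frees fatty acids from circulating triglycerides, the first mainly in fasting and the second mainly after feeding. Ahsg and Fetub encode fetuin-A and fetuin-B, abundant plasma proteins of the cystatin superfamily, and Enho encodes the peptide adropin.

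Of the 9 genes, 6 were matched by symbol to a RefSeq promoter sequence (GRCm38.p6): Fgf21, Gdf15, Angptl8, Fetub, Ahsg and Inhbe. The 250 bases before each RefSeq gene start were searched on both strands for TGATGNAA, the letters of the C/EBP-ATF response element through which ATF4 and its partners act in the integrated stress response. The letters occurred in 3 of the 6, those of Fgf21, Angptl8 and Inhbe, and in 3.91% of 27025 mouse promoters of the same length. The windows are shown because they hold this element, and each is written 5′ to 3′ on the strand of its gene with the matched letters in capitals.
Fgf21, chr7:45615611-45615640, minus strand, match 139 to 132 bases before the start: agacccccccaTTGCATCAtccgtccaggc
Angptl8, chr9:21835369-21835398, plus strand, match 130 to 123 bases before the start: agccatcagtcTGATGCAAtggctgagcct
Inhbe, chr10:127352011-127352040, minus strand, match 181 to 174 bases before the start: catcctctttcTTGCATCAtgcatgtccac
In Fgf21 and Inhbe the element read on the opposite strand, and in Angptl8 on the strand of the gene. The Angptl8 window lies inside the gene Dock6, which runs on the other strand, and the Inhbe window lies in a longer Inhbe UTR in GENCODE M21, which places the start of Inhbe further upstream than RefSeq. The E-box CACGTG, also searched on both strands, was in the promoters of Fgf21 and Gdf15 (6.86% of all promoters). TATAAA on the gene's strand was in those of Fgf21 and Fetub (8.94%), and CCAAT on either strand was in those of Gdf15, Fetub and Inhbe (37.5%). These matches describe letters in a window and say nothing of binding.

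The libraries held 14275793 to 20815066 counted fragments on the reverse strand. In VDS6 11.1% of fragments overlapped no annotated exon on that strand, against 2.52% to 4.94% in the other 11 libraries. The 8 hepatocyte markers (such as Alb and Ttr) summed to 89509 to 119900 CPM (counts scaled to library size with edgeR's TMM factors) with no marker at 0, and of 5 adipocyte markers Retn and Lep were at 0 in every library. In bulk tissue, fewer cells that express a gene and less of its RNA per cell cannot be told apart.

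The 9 mRNAs spanned more than 3 orders of magnitude in abundance per length. In CPM per kb of exon, Ahsg had a mean level of 3273 ± 497 (SD, n = 12) and Fetub of 233 ± 34.5. Their lowest mice, at 2621 and 165, were above the highest mouse of the next gene in the order. The means of the other 7 genes were 25.8 ± 16.6 for Angptl4, 19.3 ± 13.9 for Angptl8, 8.91 ± 3.68 for Inhbe, 6.99 ± 3.61 for Enho, 3.06 ± 2.74 for Fgf21, 2.97 ± 1.51 for Gdf15 and 1.26 ± 1.09 for Fst. Neighbours in this lower part of the order overlapped. Angptl4 was above Angptl8 in 7 of 12 mice, and Fgf21 was above Gdf15 in 6. Gdf15 was above Fst in 11.

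**Figure D1:**
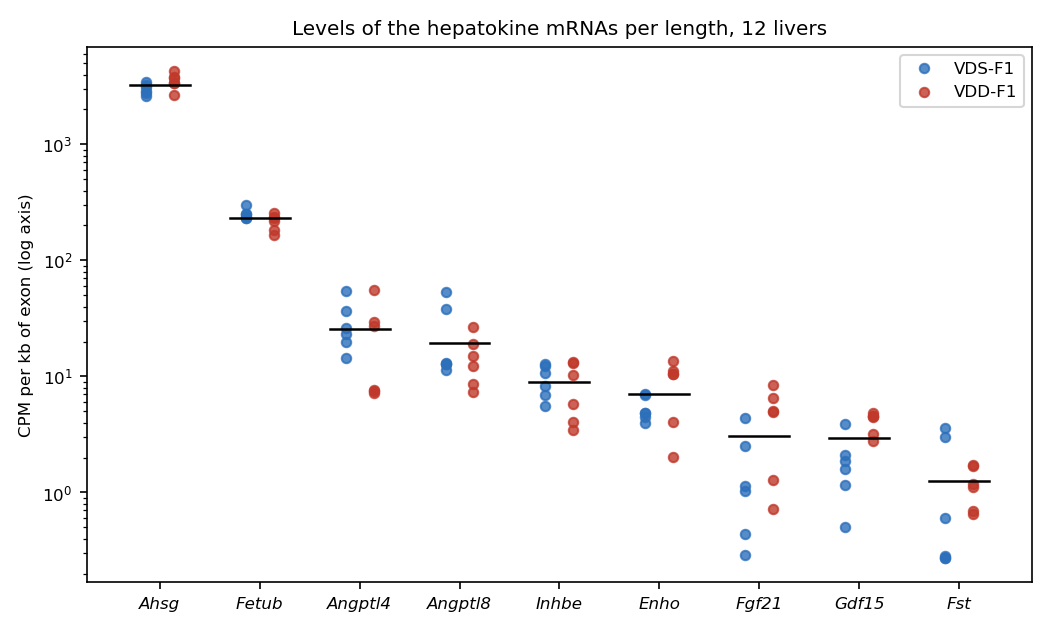
Level of each hepatokine mRNA in each liver in CPM per kb of exon on a log axis, with VDS-F1 mice in blue, VDD-F1 mice in red and the mean of the 12 mice as a line. Ahsg and Fetub stand apart from the rest, and the other 7 genes overlap with their neighbours.

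The genes also differed in their spread between mice. The coefficient of variation over the 12 mice was 14.8% for Fetub and 15.2% for Ahsg, and the highest mouse was 1.82 and 1.63 times the lowest. It was 89.3% for Fgf21, 86.3% for Fst and 72.0% for Angptl8. For Fgf21 the highest mouse was 29.4 times the lowest, and for Fst 13.2 times.

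The first comparison asked whether maternal vitamin D deficiency was followed by a difference in the adult liver, with all 12 mice. No hepatokine was a DEG, defined as an adjusted p under 0.05 with a log2-fold change above 1 or below -1 in edgeR's quasi-likelihood test, and 0.0402% of genes tested were DEGs. At an unadjusted p under 0.05, 2 of 9 were higher in VDD-F1 (Fgf21 and Gdf15) against 9.55% of all genes, and 0 of 9 were lower against 6.29%. DESeq2 and voom each called 1 of 9 hepatokines, Gdf15, where DESeq2 called 2.03% of genes and voom 2.02%. No hepatokine separated the 6 VDD-F1 from the 6 VDS-F1 mice without overlap, as 1.18% of genes did. The median log2-fold change over the 9 genes was -0.18, and over all genes tested it was 0.00413.

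Fgf21 (ENSMUSG00000030827.5, GRCm38 chromosome 7, 45613886 to 45615490, minus strand) is induced in the fasted liver and signals through beta-klotho and FGF receptors. In VDD-F1 it was at 6.25, 8.09, 4.67, 0.687, 4.79 and 1.21 CPM in VDD1 to VDD6, and in VDS-F1 at 2.37, 4.13, 0.275, 0.988, 0.417 and 1.07 CPM in VDS1 to VDS6. The 4 highest mice were VDD-F1. VDD4 lay among the 4 low VDS-F1 mice, and VDD6 was just above them and below VDS1 and VDS2. The means were 4.28 ± 2.87 and 1.54 ± 1.47 (SD, n = 6 each), a 2.73-fold difference with a 95% interval of 1.07 to 6.98. Its log2-fold change was 1.45 (SE 0.63, adjusted p = 0.286 in edgeR). The depth behind it was low, with 4 to 155 counts per library.

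Gdf15 (ENSMUSG00000038508.7, chromosome 8, 70629393 to 70632456, minus strand) encodes a stress-induced cytokine that acts on the hindbrain receptor GFRAL and lowers food intake. It was at 8.46, 5.17, 9.04, 5.90, 8.20 and 8.49 CPM in VDD1 to VDD6 and at 0.938, 7.26, 2.96, 3.49, 2.15 and 3.86 CPM in VDS1 to VDS6. Every VDD-F1 mouse was above 5 of the 6 VDS-F1 mice, and VDS2 alone reached into the VDD-F1 range. The means were 7.54 ± 1.60 and 3.44 ± 2.14 (SD, n = 6 each), a 2.19-fold difference with a 95% interval of 1.31 to 3.66. Its log2-fold change was 1.13 (SE 0.34, adjusted p = 0.134 in edgeR). The adjusted p was 0.0339 with DESeq2 and 0.0232 with voom, and 0.0643 to 0.267 with each mouse left out of the edgeR fit.

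Within the recorded set the difference in Gdf15 was past the threshold. VDD4 to VDD6 had 5.90 to 8.49 CPM and VDS3 to VDS6 had 2.15 to 3.86, a 2.42-fold difference (log2-fold change 1.27, SE 0.23, adjusted p = 0.00436 in edgeR). Its log2-fold change was 0.89 (SE 0.74) in the not recorded set, with VDS1 at 0.938 and VDS2 at 7.26 CPM. The 2 differences were not distinguishable by the interaction term (0.38, SE 0.73, adjusted p = 0.931).

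Fgf21 was lower in the recorded than in the not recorded set of mice. With diet in the model, the difference was 3.49-fold (log2-fold change -1.80, SE 0.43, adjusted p = 0.0462 in edgeR), which made Fgf21 1 of 9 hepatokines called for set, against 0.891% of genes. Among VDS-F1 mice the recorded set was at 0.275 to 1.07 CPM and the other 2 mice at 2.37 and 4.13. This call was lost in 11 of 12 fits with 1 mouse left out, while its log2-fold change stayed between -2.46 and -1.58. Without VDD5, the highest mouse of the recorded set, the adjusted p was 0.00622. Genes of other lists moved along with this call. By set, 5 of 20 glucose, insulin and lipogenic genes and 4 of 25 other secreted liver genes were DEGs, all lower in recorded mice. They included Fasn (-1.90, adjusted p = 0.00882 in edgeR), Acaca (-1.35, 0.00247) and Apoa4 (-3.30, 8.48e-06). Red blood cell markers moved too. Their summed level was 237 to 487 CPM in recorded mice and 524 to 1377 in the others, with no marker at 0 in every library. Of the 6 markers 4 were lower in the recorded set, the globin genes Hbb-bs (-1.70, adjusted p = 0.00671 in edgeR), Hba-a1 (-1.51, 0.0161), Hbb-bt (-1.40, 0.0213) and Hba-a2 (-1.18, 0.0256), and Slc4a1 and Alas2 had -0.71 and 0.35 (adjusted p = 0.608 and 0.324). The part of these markers and of the other lists in the result was not tested. Within the recorded set, Fgf21 had a log2-fold change of 1.68 by diet (SE 0.64, adjusted p = 0.123), which was 0.45 without VDD5. Of the mice without a recorded weight, all 3 VDD-F1 mice, at 4.67 to 8.09 CPM, were above both VDS-F1 mice (log2-fold change 0.97, SE 0.39, adjusted p = 0.999).

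**Figure D2:**
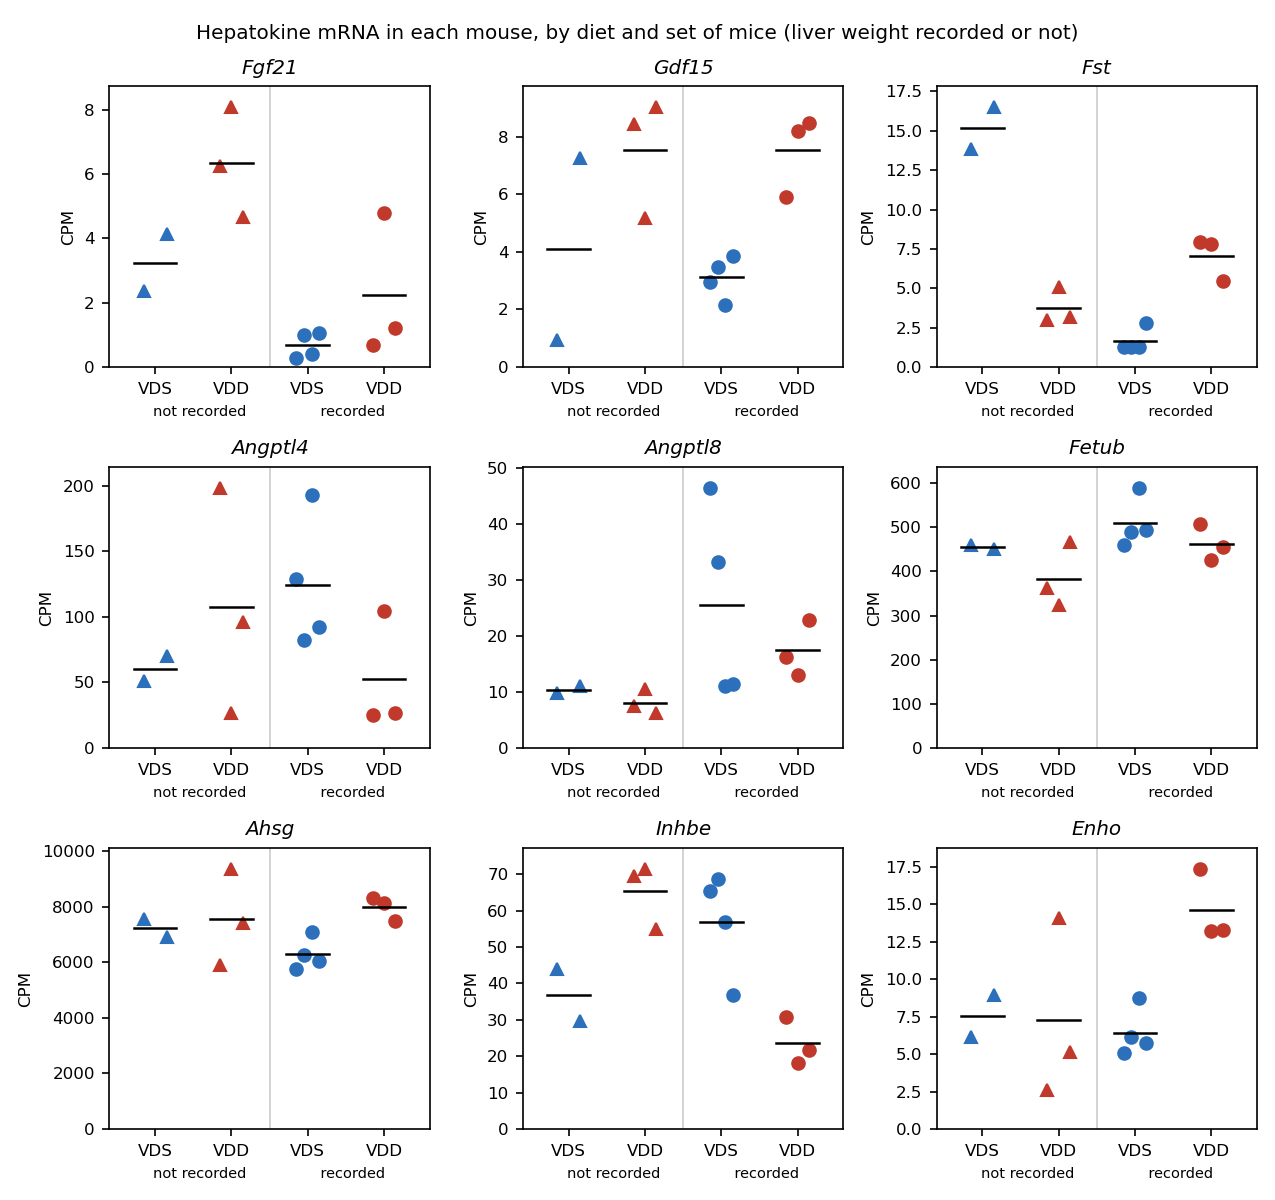
CPM of each hepatokine in each mouse, with VDS-F1 in blue, VDD-F1 in red, triangles for mice without and circles for mice with a recorded liver weight, and lines at the group means. Fst was at 13.8 and 16.5 CPM in the 2 VDS-F1 mice of the not recorded set and at 1.25 to 2.79 in the 4 of the recorded set, and Inhbe changes order between the sets.

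Fst (ENSMUSG00000021765.8, chromosome 13, 114452290 to 114458951, minus strand) had the widest split. Mice of the recorded set had 7.96, 7.78 and 5.46 CPM in VDD4, VDD5 and VDD6 and 1.31, 1.25, 1.25 and 2.79 CPM in VDS3 to VDS6. Those of the not recorded set had 2.97, 5.12 and 3.16 CPM in VDD1 to VDD3 and 13.8 and 16.5 CPM in VDS1 and VDS2. The VDD-F1 mice were thus above every VDS-F1 mouse in one set and below every VDS-F1 mouse in the other.

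The log2-fold change of Fst was 2.11 in the recorded set (SE 0.30, adjusted p = 0.00109 in edgeR), a 4.31-fold higher level in VDD-F1. For the other set it was -2.002 (SE 0.30, adjusted p = 0.535 in edgeR), a 4.01-fold lower level. The interaction term was 4.11 (SE 0.45, adjusted p = 0.00244 in edgeR), so the ratio of VDD-F1 to VDS-F1 was 17.3-fold larger in the recorded set. The call was kept in all 12 fits that left out 1 mouse, with adjusted p from 0.000128 to 0.0312. Over all 12 mice the opposite changes left a log2-fold change of -0.20 (SE 0.63, adjusted p = 0.917), and its sign changed without VDS1 or VDS2. Fst had 18 to 280 counts per library. It shares 115 of its 4589 exon bases with the antisense gene Gm47040, and strand was used in counting.

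Fst was 1 of 9 hepatokines past the DEG thresholds for the interaction of diet and set, against 0.0803% of genes tested, and 3 of 9 had an unadjusted p under 0.05 against 9.01% of genes. Those 3 were Fst, Inhbe and Angptl4. Fst and Inhbe were also 2 of 9 whose diets did not overlap within either set and had opposite directions, as 1.24% of genes did.

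Inhbe (ENSMUSG00000047492.5, chromosome 10, 127348857 to 127354411, minus strand) went the other way from Fst in both sets. Recorded mice had 30.8, 18.2 and 21.7 CPM in VDD4 to VDD6 and 65.5, 68.8, 57.0 and 36.8 CPM in VDS3 to VDS6. The other mice had 69.5, 71.5 and 54.9 CPM in VDD1 to VDD3 and 43.9 and 29.8 CPM in VDS1 and VDS2. The recorded VDD-F1 mice were thus all below the recorded VDS-F1 mice, and the not recorded ones all above.

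Inhbe fell in VDD-F1 of the recorded set, with a log2-fold change of -1.28 (SE 0.22, adjusted p = 0.00353 in edgeR), a 2.43-fold lower level. Its log2-fold change in the not recorded set was 0.83 (SE 0.22, adjusted p = 0.999 in edgeR). The interaction term was -2.11 (SE 0.36) with an adjusted p of 0.0573 in edgeR, which missed the threshold. It passed with DESeq2 (adjusted p = 8.26e-06), with a filter on a total count of 12 (0.0393), without VDD2 (0.0120) and without VDS6 (0.0138), and over the 12 fits with 1 mouse left out the adjusted p ran from 0.012 to 0.195. Over all 12 mice the log2-fold change by diet was -0.18 (SE 0.33, adjusted p = 0.840).

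The other genes of the activin and follistatin system were counted over all 12 mice and in the recorded set. Of 13 genes on that list, Fst and Inhbe included, 11 were tested, 0 were DEGs over all 12 mice, and 1 was higher and 1 lower at an unadjusted p under 0.05 (9.55% and 6.29% of all genes), with a median log2-fold change of 0.00273. Fstl1, a secreted follistatin-like glycoprotein, averaged 12.9 CPM in VDD-F1 against 4.58 CPM in VDS-F1 (log2-fold change 1.504, adjusted p = 0.0812), and rose among recorded mice (1.75, adjusted p = 0.000109). Inhba, the activin A subunit, had a log2-fold change of -0.69 (adjusted p = 0.315), and Inhbb and Bambi, a decoy receptor, had 0.29 and 0.33. In the recorded set 3 of the 11 were higher and 1 lower at an adjusted p under 0.05 (5.85% and 5.12% of all genes), Fst and Inhbe among them. Fst alone passed the interaction test of the 11. Smad3, a transducer of activin signals, was higher in VDD-F1 without overlap in the recorded set (0.36, adjusted p = 0.0493) and lower without overlap in the other (-0.62), with an interaction term of 0.98 (adjusted p = 0.120). Inhba had -0.09 in the recorded set and -1.42 in the other (interaction 1.34, adjusted p = 0.343). Inhbc, the activin C subunit, is the near neighbour of Inhbe, and its log2-fold change was 0.08 in the recorded set and -0.31 in the other (interaction adjusted p = 0.721).

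Angptl4 (ENSMUSG00000002289.15, chromosome 17, 33773750 to 33781830, minus strand), an inhibitor of lipoprotein lipase, varied widely inside both groups. It was at 198, 27.1, 96.3, 25.4, 105 and 26.7 CPM in VDD1 to VDD6 and at 51.4, 69.8, 129, 82.7, 193 and 92.1 CPM in VDS1 to VDS6. The 3 lowest mice were VDD-F1, and so was the highest. The log2-fold change was -0.37 (SE 0.50, adjusted p = 0.765 in edgeR). Among recorded mice it was -1.24 (SE 0.46, adjusted p = 0.110), with VDD5 at 105 CPM above VDS4 and VDS6. Without VDD5 it was -2.27 with an adjusted p of 0.00350. It was 0.82 (SE 0.70) in the not recorded set, and the interaction term was -2.07 (SE 0.95, adjusted p = 0.550 in edgeR). With 1 mouse left out that term ran from -3.09 without VDD5 to -1.27 without VDD1, with 0 of 12 adjusted p under 0.05.

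Angptl8 (ENSMUSG00000047822.8, chromosome 9, 21835510 to 21837347, plus strand) lies inside Dock6 on the other strand and shares 0 exon bases with it. It was at 7.51, 10.6, 6.33, 16.3, 13.0 and 23.0 CPM in VDD1 to VDD6 and at 9.82, 11.1, 46.5, 33.3, 11.2 and 11.4 CPM in VDS1 to VDS6. VDS3 and VDS4 stood above all other mice, and the other VDS-F1 mice lay inside the VDD-F1 range. The log2-fold change by diet was -0.68 (SE 0.43, adjusted p = 0.466 in edgeR), and -0.26 without VDS3. By set it was 1.19 higher in recorded mice on the log2 scale (SE 0.34, adjusted p = 0.0983 in edgeR and 0.00750 in DESeq2).

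The angiopoietin-like list held 7 genes, of which 5 were tested, Angptl4 and Angptl8 among them. Over all 12 mice 0 of them were higher and 1 was lower at an unadjusted p under 0.05, against 9.55% and 6.29% of all genes, with a median log2-fold change of -0.37. The lower gene was Angptl6, a secreted member also known as angiopoietin-related growth factor, with means of 8.39 CPM in VDD-F1 against 13.1 CPM in VDS-F1 (-0.65, adjusted p = 0.147). It fell in the recorded set (-1.12, adjusted p = 0.00122). Angptl2 had a log2-fold change of 0.37 (adjusted p = 0.390).

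Ahsg (ENSMUSG00000022868.5, chromosome 16, 22891277 to 22899449) and Fetub (ENSMUSG00000022871.12, chromosome 16, 22918334 to 22939778) are neighbours on the plus strand. Ahsg was at 5898, 9362, 7427, 8322, 8140 and 7475 CPM in VDD1 to VDD6 and at 7574, 6900, 5758, 6276, 7103 and 6050 CPM in VDS1 to VDS6. The groups overlapped, since VDD1 had a lower level than 5 of the 6 VDS-F1 mice. The log2-fold change was 0.23 (SE 0.13, adjusted p = 0.389 in edgeR), with a 95% interval from 0.974-fold to 1.42-fold. Among recorded mice the groups did not overlap and Ahsg rose by 0.34 (SE 0.09, adjusted p = 0.0366), under the fold threshold for a DEG, and it kept an adjusted p under 0.05 in 2 of 7 fits with 1 mouse left out.

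Fetub was at 362, 323, 466, 507, 427 and 455 CPM in VDD1 to VDD6 and at 460, 452, 460, 490, 589 and 495 CPM in VDS1 to VDS6. VDD1, VDD2 and VDD5 were below all VDS-F1 mice, and VDS5 was the highest mouse. The log2-fold change was -0.21 (SE 0.12, adjusted p = 0.389), with a 95% interval from 1.38-fold lower to 1.02-fold higher. It was -0.14 in the recorded and -0.25 in the not recorded set. All 5 genes of the type 3 cystatin list (with Hrg, Kng1 and Kng2) were tested, and 0 were DEGs or had an unadjusted p under 0.05 in edgeR. Of all genes 0.0402% were DEGs, and 9.55% were higher and 6.29% lower at that unadjusted p. Kng2, a kininogen, rose in the recorded set (0.39, adjusted p = 0.0165), and Hrg had -0.15 there (adjusted p = 0.346).

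Enho (ENSMUSG00000028445.7, chromosome 4, 41638144 to 41640324, minus strand) encodes adropin, a peptide linked to the control of fuel use. It was at 2.59, 14.1, 5.12, 17.4, 13.2 and 13.3 CPM in VDD1 to VDD6 and at 6.12, 8.97, 5.09, 6.14, 8.75 and 5.72 CPM in VDS1 to VDS6. The VDD-F1 mice fell into 4 with 13.2 CPM or more, all above the VDS-F1 mice, and VDD1 and VDD3, which were within or under the VDS-F1 range. Over all mice the log2-fold change was 0.69 (SE 0.35, adjusted p = 0.361 in edgeR). Enho rose 2.27-fold in the recorded set (1.18, SE 0.19, adjusted p = 0.00250) and had a log2-fold change of -0.04 (SE 0.65) in the other. The interaction term was 1.22 (SE 0.64, adjusted p = 0.612), and without VDD2, the high mouse of the not recorded set, it was 2.16 (adjusted p = 0.0147). The 4 mice with high Enho also had the most counts of the cytochrome P450 gene Cyp2a4, with 774, 527, 505 and 541 counts in VDD2, VDD4, VDD5 and VDD6 and 0 to 8 in the other 8 mice.

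In the recorded set as a whole, 3 hepatokines rose and 1 fell as DEGs: Gdf15, Fst and Enho were higher in VDD-F1 and Inhbe was lower. These 4 of 9 stood against 4.30% of genes, and with Ahsg 4 of 9 were higher at an adjusted p under 0.05 against 5.85% of genes and 1 of 9 was lower against 5.12%. The diets did not overlap for the same 5 genes, and 23.4% of genes showed this for 3 against 4 mice. All 4 DEG calls held an adjusted p under 0.05 in each of the 7 fits with 1 mouse left out. The median log2-fold change of the 9 genes was 0.34 there. In the not recorded set, with 3 against 2 mice, edgeR called 0 hepatokines, as it called 0 of 12453 genes. At an unadjusted p under 0.05 there were 3 hepatokines and 472 genes. The diets did not overlap for 3 hepatokines (Fgf21, Fst and Inhbe), as for 18.5% of genes.

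**Figure D3:**
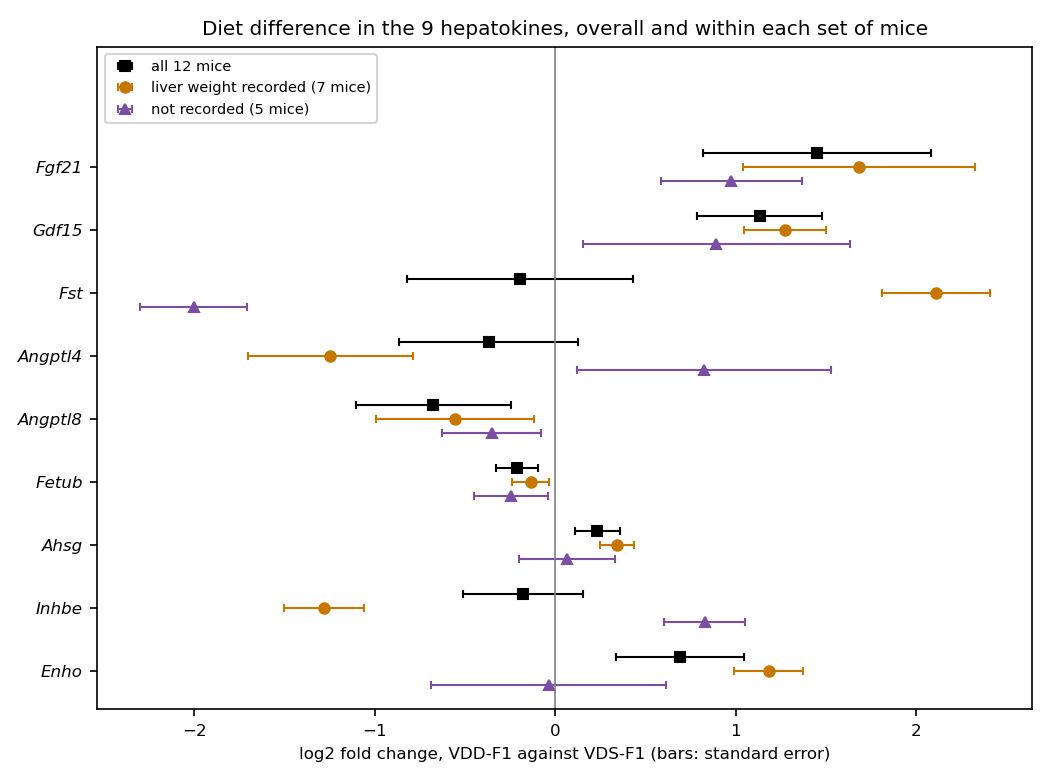
Log2-fold change of VDD-F1 against VDS-F1 for each hepatokine, with standard errors, in all 12 mice (black squares), in the 7 mice with a recorded liver weight (orange circles) and in the 5 without (purple triangles). Fst has 2.11 and -2.002 in the 2 sets and Inhbe -1.28 and 0.83, while Fgf21 and Gdf15 lie above 0 in all 3 fits.

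Summed markers of 9 of 13 cell types did not overlap between the diets in the recorded set, and they moved along with these 4 genes, and their part in the result was not tested. Summed hepatocyte markers ran from 110650 to 113170 CPM in recorded VDD-F1 mice and from 89509 to 97192 in recorded VDS-F1 mice, where Alb and Tf (listed as Trf) rose and Hnf4a fell among 8. Most of this sum was Alb, which averaged 73412 CPM in VDD-F1 and 62238 CPM in VDS-F1 over all 12 mice. Apob and Cps1 each had a log2-fold change of -0.10 in the recorded set. Stellate cell markers ran from 499.6 to 588 CPM and from 314 to 383, where Dcn, Col1a1 and Col3a1 rose among 8. The other stellate markers did not pass, with 0.38 for Lrat and 0.63 for Des but -0.11 for Reln, -0.07 for Colec11 and -0.18 for Rgs5. Kupffer cell markers were at 128 to 179 and 195 to 262 CPM, where Clec4f, Cd5l, Timd4 and Csf1r fell among 7. Marco had 0.69, against the direction of its list, and did not pass (adjusted p = 0.0707 in edgeR). Cholangiocyte markers were at 58.2 to 72.4 and 27.8 to 44.2 CPM, where Epcam and Spp1 rose among 5 tested. The endothelial markers overlapped between the diets, at 269 to 296 and 281 to 325 CPM, and Stab2 fell among 7. No marker on these 5 lists was at 0 in every library. Markers at a few CPM also separated the diets. They were higher in VDD-F1 for dendritic cells (2.05 to 2.997 against 0.481 to 1.30 CPM), B cells (2.52 to 2.88 against 0.859 to 2.24) and T and NK cells (1.95 to 2.197 against 1.25 to 1.86). The one tested gene on each of the last 2 lists did not pass, with log2-fold changes of 1.21 for Cd79a of B cells (adjusted p = 0.114 in edgeR) and -0.37 for Cd3e of T cells (adjusted p = 0.593), the latter against the direction of its summed list. They were lower for adipocytes (0.105 to 1.82 against 2.92 to 4.27) and pancreas (3.71 to 5.92 against 6.01 to 12.4), where Cfd and Cela1 fell as the one tested gene of 5 in each list. These 2 sums rest on Cfd and Cela1. Over all libraries Adipoq had 1 count and Plin1 6, and Cpa1, Prss2, Pnlip and Ctrb1 had 9, 3, 7 and 10.

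Receptors and partners of the hepatokines were examined next. Of 20 genes, 17 were tested, 0 were DEGs over all 12 mice in edgeR, and 4 were higher and 2 lower at an unadjusted p under 0.05 (9.55% and 6.29% of all genes), with a median log2-fold change of -0.0316. Gfral, the GDF15 receptor, was at 0 in every library. Its signalling partner Ret had at most 1 count and Acvr1c, an activin receptor, at most 4. Klb, the FGF21 co-receptor, averaged 40.7 CPM in VDD-F1 against 44.3 CPM in VDS-F1 (log2-fold change -0.12, adjusted p = 0.738). Fgfr1, its receptor partner, was at 17.7 and 8.51 CPM (1.06, adjusted p = 0.160) and rose in the recorded set (1.15, adjusted p = 0.000214). Lpl, the lipase that the angiopoietin-like proteins inhibit, averaged 71.8 ± 50.9 CPM in VDD-F1 against 16.3 ± 3.97 in VDS-F1 (SD, n = 6 each; log2-fold change 2.14, adjusted p = 0.0918) and rose in the recorded set (2.61, adjusted p = 4e-06). Lipc, the hepatic lipase, had -0.52 (adjusted p = 0.0855) and fell in the recorded set (-0.67, adjusted p = 0.000510). Tlr4, a receptor through which fetuin-A is reported to signal, had 0.81 (adjusted p = 0.109).

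Other secreted liver proteins gave 1 gene higher and 3 lower of 25 tested at an unadjusted p under 0.05 (9.55% and 6.29% of all genes), with 0 DEGs in edgeR and a median of -0.0322. Gpnmb, a transmembrane glycoprotein with a shed form, ranged from 0.379 to 45.4 CPM in the 6 VDD-F1 mice and from 0.0687 to 0.592 in the 6 VDS-F1 mice, with a log2-fold change of 5.72 and an adjusted p of 0.0627. Tsku, the hepatokine tsukushi, had -0.93 (adjusted p = 0.225). Its log2-fold change was -1.32 in the recorded set (adjusted p = 0.00226) and 0.62 in the other (interaction adjusted p = 0.0573). Manf, a secreted ER stress protein, had -0.42 (adjusted p = 0.258). Of this list, 4 genes rose and 5 fell at an adjusted p under 0.05 in the recorded set, where 5.85% of all genes rose and 5.12% fell. They included Hamp, the iron hormone hepcidin (0.81, adjusted p = 0.0281), and Serpina12, the adipokine vaspin (-2.93, adjusted p = 9.31e-07).

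**Figure D4:**
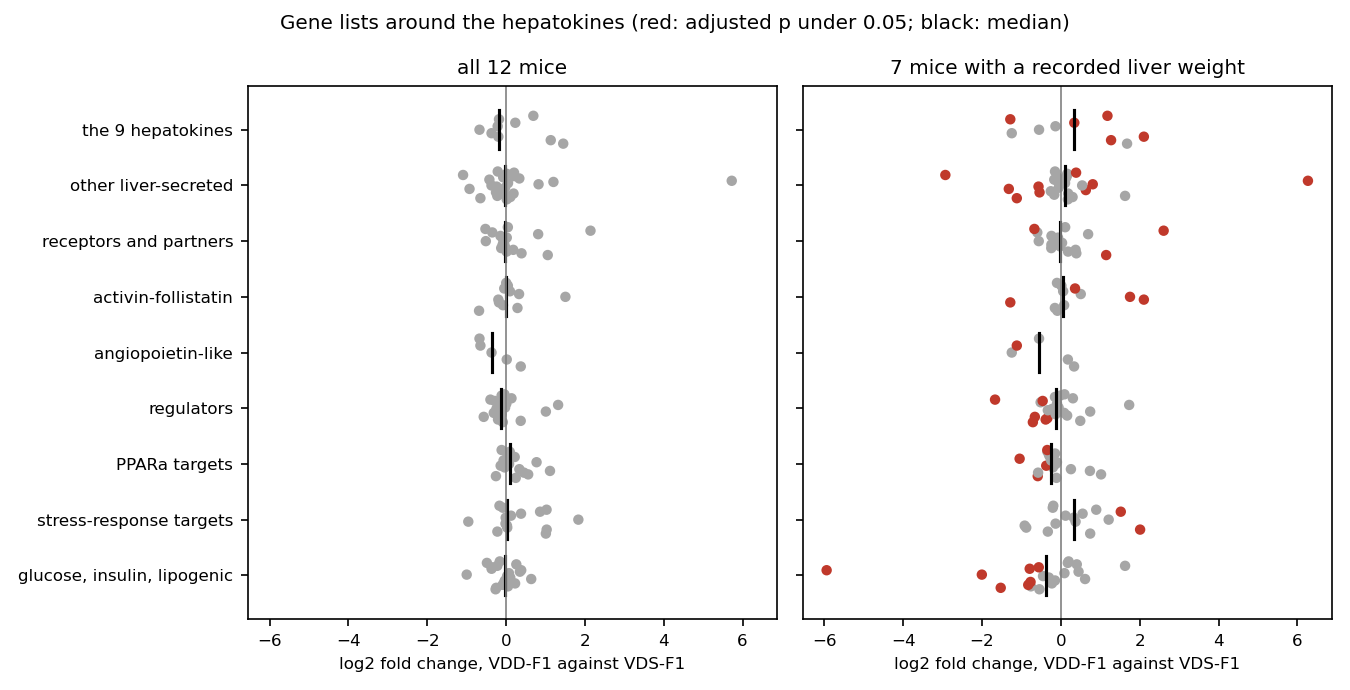
Log2-fold change by diet of each tested gene of the hepatokine list and of 8 lists around it, in all 12 mice (left) and in the 7 mice with a recorded liver weight (right), with genes at an adjusted p under 0.05 in red and list medians as black bars. No listed gene is red on the left, and on the right the hepatokine list has 5 red genes and the list of glucose, insulin and lipogenic genes has 7, all to the left of 0.

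Among 22 transcriptional regulators linked to hepatokine genes, 0 were DEGs over all 12 mice, and 1 was higher and 2 were lower at an unadjusted p under 0.05 (9.55% and 6.29% of all genes), with a median of -0.13. Mlxipl, the carbohydrate sensor ChREBP, had a log2-fold change of -0.57 (adjusted p = 0.145), and Egr1, an immediate-early factor, had 1.32 (adjusted p = 0.198). Hnf4a and Rxra had -0.29 and -0.20 (adjusted p = 0.301 and 0.320). Among recorded mice 0 rose and 6 fell at an adjusted p under 0.05, against 5.85% and 5.12% of all genes: Ppara, Rxra, Creb3l3, Mlxipl, Hnf4a and Nr1d1. Ppara and Creb3l3, both activators of Fgf21, had -0.71 (adjusted p = 0.0495) and -0.34 (adjusted p = 0.0359) there. Nr1d1 had -1.67 in recorded mice, and in the other set it was higher in VDD-F1 without overlap (1.47). Its interaction term was -3.14 (adjusted p = 0.0573 in edgeR). For Ppara the other set gave 0.57 (interaction -1.28, adjusted p = 0.331). Mlxipl had -0.47 in that set, and Rxra, Creb3l3 and Hnf4a had 0.06, 0.04 and 0.07.

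The targets of pathways that act on hepatokine genes were counted in the same way, against the same shares of all genes (9.55% higher and 6.29% lower at an unadjusted p under 0.05 over all 12 mice, and 5.85% and 5.12% at an adjusted p under 0.05 in the recorded set). Of 17 tested PPAR-alpha targets 3 were higher and 0 lower at an unadjusted p under 0.05 over all 12 mice (median 0.0925, 0 DEGs): Ehhadh (0.34), Cyp4a14 (1.11) and Acot2 (0.77), with adjusted p from 0.258 to 0.269. Pdk4, a kinase that restrains glucose oxidation, had 0.56 (adjusted p = 0.459). Acot2, a mitochondrial acyl-CoA thioesterase, had -0.10 in the recorded set and 2.24 in the other (interaction -2.34, adjusted p = 0.0265). Within the recorded set 0 rose and 4 fell at an adjusted p under 0.05, with Vnn1 at -1.05 (adjusted p = 0.00260). Vnn1 had 0.89 in the other set (interaction -1.935, adjusted p = 0.145 in edgeR). Of 15 tested targets of the integrated stress response, 2 were higher and 0 lower at an unadjusted p under 0.05 (median 0.0288, 0 DEGs), Psat1 (1.83, adjusted p = 0.165) and Mthfd2 (0.86, adjusted p = 0.293). Asns and Atf3 had 1.03 and 1.01. Recorded VDD-F1 mice had 2 of them higher past the adjusted threshold, Asns (2.01, adjusted p = 0.0157) and Mthfd2 (1.52, adjusted p = 0.0379).

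Of 20 glucose, insulin and lipogenic genes, 1 was higher and 1 lower at an unadjusted p under 0.05 over all 12 mice (median -0.0369, 0 DEGs), where 9.55% and 6.29% of all genes were. Those were Tm6sf2 (0.35, adjusted p = 0.222) and Gpd1 (-0.36, adjusted p = 0.286), while Scd1, a fatty acid desaturase, had 0.64, and Thrsp was at 154 CPM in VDD-F1 mice and 309 CPM in VDS-F1 mice. In the recorded set 0 rose and 7 fell at an adjusted p under 0.05, against 5.85% and 5.12% of all genes, led in size by Rgs16 (-5.94, adjusted p = 0.0119), Thrsp (-2.004, adjusted p = 0.000557) and Pklr (-1.52, adjusted p = 3.42e-05). Angptl8, itself known as an insulin-responsive gene, had -0.55 in these mice (adjusted p = 0.476). In the not recorded set Rgs16, Thrsp and Pklr had 0.88, -0.82 and -0.04.

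Relations between hepatokines were computed for 8 pairs across the 12 mice, and 0 of 8 passed at an adjusted p under 0.05. The unadjusted p was under 0.05 for 0 of 8 as well. The highest r was 0.511, for Fgf21 and Fst (permutation p = 0.0941, adjusted 0.564), with rho = 0.406 (permutation p = 0.193, adjusted 0.740) and r = 0.420 without VDS3 and VDD2. Fgf21 and Gdf15 had r = 0.456 (permutation test with 100000 resamples, two-sided, p = 0.141, adjusted 0.564) and rho = 0.552 (p = 0.0661, adjusted 0.529), with r = 0.450 without VDS3 and VDD2. With the diet means removed r was 0.141. In the 7 recorded mice r ran from -0.912 for Gdf15 and Inhbe to 0.739 for Fgf21 and Gdf15 over the 8 pairs, with -0.765 for Fgf21 and Inhbe, and these values were not tested. They pool both diets, so they carry the diet differences of these genes in the same mice. With diet means removed over all 12 mice, r was -0.237 for Gdf15 and Inhbe. Ahsg and Fetub had r = -0.260 (permutation p = 0.421, adjusted 0.674) and rho = -0.175 (permutation p = 0.589, adjusted 0.785), and r = 0.230 without VDD2 and VDS3. No r is given for the not recorded set, since it held fewer than 6 mice.

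The genes with the most similar pattern to each hepatokine were found among 7277 genes with a mean of at least 10 CPM, by Pearson's r of log2 CPM over the same 12 libraries. They are given as a description with no test. Fgf21 was nearest to Elovl2 (r = 0.901), Elovl5 (0.898) and Fads1 (0.889), which remained at 0.845 to 0.887 with diet means removed. Gdf15 was nearest to Cfdp1 (0.905), Dis3l2 (0.851) and Rala (0.840). Fst was nearest to Elmo2 (0.902), Itih3 (0.871) and Tff3 (0.851), and Inhbe to Bicra (0.878) and Epha2 (0.862). Angptl4 was nearest to Il6ra (0.906), Gucd1 (0.900) and Lmtk2 (0.893), and Angptl8 to Txn1 (0.883), Tm9sf1 (0.845) and Rbm8a (0.840). Fetub was nearest to Proc (0.930), Agt (0.917) and Pon1 (0.885), and Ahsg to Pcdhgc3 (0.952), Cpd (0.937) and Col1a1 (0.928). Enho was nearest to Timp3 (0.906), Mug2 (0.905) and Nav1 (0.903). Fgf21, Gdf15, Fst and Enho were under 10 CPM on average and could not be among the nearest genes, and the other 5 hepatokines were not among those named.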

How the data were processed

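Total liver RNA was depleted of ribosomal RNA and sequenced by the authors, who trimmed the reads, aligned them to mm10 with STAR (version not given in the sources used here) and GENCODE M15, and deposited raw counts per gene without normalization. The reverse-strand count was used, which held 92.7% to 95.8% of stranded counts. It leaves out reads that map to several places, and 12 libraries of 14275793 to 20815066 counts bound the precision of low genes. Gene positions and lengths came from GENCODE M21, in which 52403 of 52636 genes were matched, and promoters from RefSeq.

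Genes whose mean count reached 12 were tested with edgeR 4.0.16 in R 4.3.3 (TMM, quasi-likelihood test in its legacy form) and Benjamini-Hochberg adjustment over 12453 genes. The study's methods name DESeq2 with the same filter and thresholds. Set and interaction terms were fitted in all 12 libraries. Fits within a set used that set alone. The script was tested on simulated data. Correlations used log2 CPM with a prior count of 2 in SciPy 1.17.1 (Python 3.11.15, NumPy 2.4.6, pandas 2.3.3), and figures matplotlib 3.10.9.

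Named genes are the 9 hepatokines, the 4 genes per list with the smallest p in the diet effect where no gene was a DEG, and the 3 most correlated genes per hepatokine, of which 1 is not reported here. Inhbc, Smad3, Klb, Gfral, Ret, Acvr1c and Cyp2a4, and list genes named for the recorded set or for the set of mice, were chosen after their values were seen. The hepatokines, lists, motifs and sets of mice were chosen with earlier results of these data known. Alternatives were DESeq2 1.42.0, voom with quality weights in limma 3.58.1, edgeR's newer form, DESeq2 size factors, the unstranded count, 2 other filters, the set as covariate, each set alone, a replicate block, each mouse left out, a prior count of 0.5 and the longest transcript as length. Leaving out mice in the set, interaction and recorded-set fits, and DESeq2 and the unstranded count in the recorded set, were chosen after seeing the data.

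The replicate numbers are those of the sample names, and a shared number does not mark a shared mouse.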

Additional observations from a re-analysis of the deposited data

Results flagged for a closer look

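Fetub in VDS5, at 589.36 CPM, lay far above the other 5 VDS-F1 mice (452 to 495 CPM). Its gap to the nearest mouse was 0.688 of the range of the group, above the limit of 0.625 for 6 values. This check was made for 9 genes in 2 diet groups, 18 in all, and about 1 in 20 such groups passes it by chance.

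The diet difference of Fst differed between the recorded and the not recorded set of mice, with an interaction of 4.1091 on the log2 scale that passed edgeR's test. For Inhbe the interaction was -2.1052, with every VDD-F1 mouse below the VDS-F1 mice in one set and above them in the other, and its adjusted p of 0.0573 missed the threshold.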

How the results depend on the processing

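The direction of the diet difference stayed the same for Fgf21, Gdf15, Angptl8, Fetub and Ahsg under every alternative run. Over all genes, 5 were DEGs by diet in edgeR, against 253 with DESeq2, 252 with voom, 17 with edgeR's newer form, 70 with no filter beyond 1 count, 21 with the set as covariate, 536 in the recorded set alone and 0 in the other alone, and 0 to 260 with 1 mouse left out. Hepatokines among them were 0 of 9, and 1 with DESeq2, 1 with voom and 4 in the recorded set alone.

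Correlations of deviations between mice of the same number were -0.08 to 0.10. They were not set against mice of different numbers, so they do not settle whether the numbers pair mice. With the replicate block 17 genes and 0 hepatokines were DEGs.

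Fst by diet was 1.30 with voom, 0.27 with the set as covariate, 2.11 in the recorded set, 0.53 with the replicate block and -0.41 to 0.38 with 1 mouse left out. In the not recorded set Angptl4 was 0.82, Inhbe 0.83 and Enho -0.036. The cause was not tested.

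By set, 111 genes were DEGs (68 to 178 with 1 mouse left out), with 1 hepatokine (0 to 1, and 2 with DESeq2). For the interaction 10 were (3 to 244, the most without VDD2, and 97 with DESeq2), with 1 hepatokine (1 to 3, 2 with DESeq2 and 2 with a total count of 12). With 1 mouse left out, values by set ran from -0.49 to 0.41 for Angptl4, -0.14 to 0.014 for Ahsg and -0.44 to 0.43 for Gdf15, and interactions from -0.45 to 0.25 for Angptl8, -0.53 to 1.12 for Fgf21 and -1.72 to 1.22 for Gdf15. A mouse left alone in its group was taken to vary like the others. The r of Inhbe and Angptl8 was -0.000471, and 0.0124 without strand. In the recorded set 386 to 646 genes were DEGs with 1 mouse left out.

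Counts of 4 to 155 for Fgf21 and 18 to 280 for Fst limit their precision. The mean levels per kb of Ahsg and Fetub were 4845 and 286 over the longest transcript.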
